A study of Ictalurus punctatus with 54 samples.

Results

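The transcripts described here were the 100 whose level varied least over the gills of 54 channel catfish (Ictalurus punctatus) fingerlings. They were taken from 37586 Ensembl transcripts, of which they made up 0.266%. Levels were CPM (a transcript's share of all counts, on a fixed scale) scaled by TMM, a factor per library that brings most transcripts of the libraries onto a common level. A transcript had to reach a count of 10 in at least 6 fish, as 13672 did, and a mean of at least 50 CPM over all fish, and the 100 transcripts with the highest mean in the controls were left out. Of the 2430 transcripts that remained eligible, the 100 with the lowest ratio of SD to mean over the 54 fish were kept (4.12%). The transcripts were thus chosen by their measured spread, so every spread and group mean below that uses all 54 fish is a description.

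Fingerlings averaging 7.3 g were divided into 9 groups of 6, with 1 gill library per fish. Control fish received no treatment. Cu0h fish were exposed to copper sulfate and sampled immediately, and Cu24h fish were exposed and sampled after an interval of 24 h. The Cu0h-1h, Cu0h-4h and Cu0h-24h fish were challenged with the bacterium right after copper and sampled 1, 4 and 24 h later, and the Cu24h-1h, Cu24h-4h and Cu24h-24h fish were challenged after the 24 h interval and sampled at the same 3 times. The series record gives the copper sulfate dose as 2.1 mg/mL. The methods of the paper give the same figure per liter. The challenge organism is named Flavobacterium columnare in the labels and F. covae in the paper. The labels describe the 24 h as exposure, and the paper calls it recovery. Several tanks were used per treatment, but no label says which fish shared one, so tank and fish cannot be told apart in the spread between fish. No group of challenged fish without copper was analysed here.

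Steadily expressed transcripts are used as an internal scale when other transcripts are compared, as reference genes are in quantitative PCR. Genes for translation, protein turnover and energy metabolism are common choices, and none is steady under every treatment. In the gill, a tissue that carries out gas exchange and ion transport and is in direct contact with the water, copper and bacterial infection can alter both gene activity and the mix of cells. In whole gill RNA, fewer cells of a type and less RNA per cell cannot be told apart. None of the transcript identifiers could be paired with a gene name in the reference table used here (0 of 37586), so the 100 are given by identifier, and the gill's cell markers were not checked.

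Total effective counts were 352013 to 1190864 per fish (median 776356). These are sums of the deposited values, far below the reads per sample given in the methods of the paper, so they are not the sequencing depth. After every library was thinned to 352013 counts, 8 fish had fewer than 14000 transcripts detected, and the remaining 46 had 14591 to 18796. The 8 were Cu0h replicates 1 to 4, Cu24h replicates 1 and 3, Cu0h-4h replicate 4 and Cu0h-24h replicate 6, with 11341 to 13894 transcripts detected and totals of 463911 to 736773. Each had fewer transcripts detected than the other fish of its group. In Cu0h, however, these were most of the group, and replicates 5 and 6 had 17939 and 17957, against 14591 to 15472 in the controls. The main counts are also given without the 8, as a second setting and not as a correction.

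The ratio of SD to mean over the 54 fish was 0.177 to 0.317 among the steady transcripts (median 0.291). In the 2330 eligible transcripts outside the list it began at 0.317 and had a median of 0.511. The steady transcripts were of middle to high abundance, with means of 51.4 to 1470 CPM (median 163 CPM, against 112 CPM outside the list). With the eligible transcripts split by abundance into 4 equal bins, the list held 16, 20, 30 and 34, from the lowest bin to the highest. No steady transcript had a count of 0 in any fish, whereas 236 of the others (10.1%) did in at least 1. The rule picked low spread, so this difference and the lean to the upper bins are partly fixed in advance.

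Counting error, as a Poisson ratio of SD to mean, had a median of 0.0954 and accounted for a median of 12.1% of a steady transcript's variance (at most 45.7%). By this estimate, which takes effective counts as counts of reads, the larger share was not counting error. Differences between the 9 group means took a median of 31.5% of the variance (8.57 to 77.3%), where 15.1% is expected with no group difference, and in the other eligible transcripts the median was 40.5%. Within a group, the pooled ratio of SD to mean had a median of 0.252, against 0.411 outside the list. The steady transcripts thus kept most of their remaining spread among fish of the same group.

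Across groups, the highest group mean of a steady transcript was 1.28 to 2.22 times its lowest (median 1.65), against a median of 2.8 for the other eligible transcripts. The ratio was below 1.5 for 18 of the 100, between 1.5 and 2 for 78 and above 2 for 4. Outside the list, 0.944% were below 1.5 and 84.2% above 2. Between single fish, the highest level of a steady transcript was 2.2 to 31.7 times the lowest (median 4.16). Steady here was thus a matter of degree, with few transcripts level to within 1.5-fold over all groups.

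**Figure D1:**
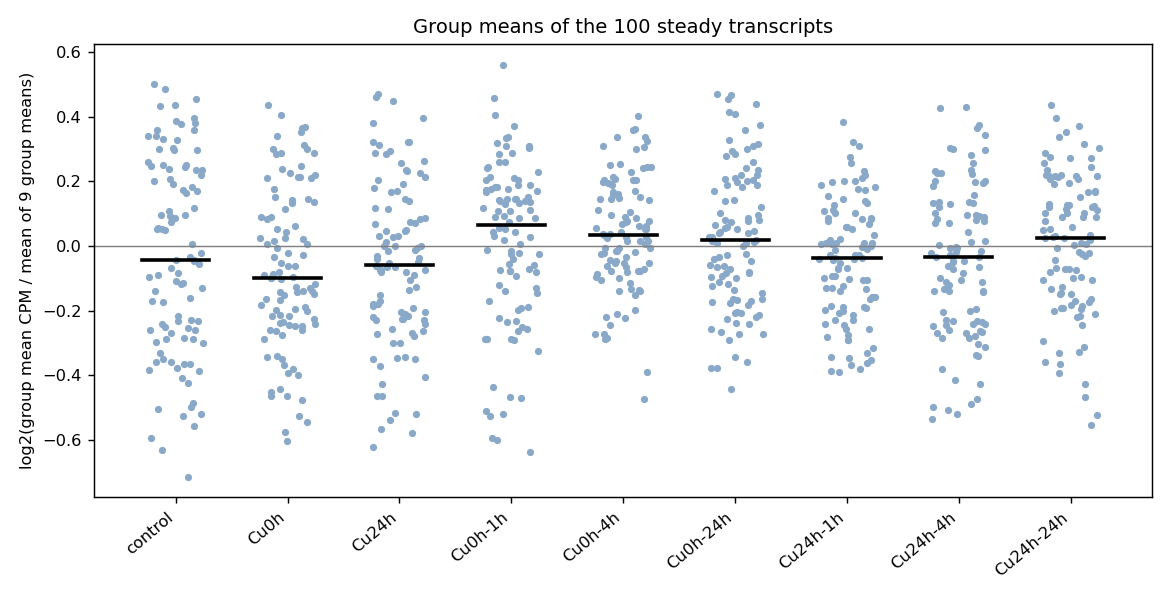
Mean level of each of the 100 steady transcripts in each of the 9 groups, as log2 of the group mean (n = 6 fish, CPM scaled by TMM) over the mean of the 9 group means. Each point is 1 transcript and the bar is the median of the 100; in every group points lie on both sides of 0, and the controls were highest for 17 transcripts and lowest for 17.

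The steadiest transcript, ENSIPUT00000032916, had a mean of 550.0 CPM and a ratio of SD to mean of 0.177. Its lowest, median and highest fish were at 457, 508 and 629 CPM in the controls, at 344, 480 and 650 CPM in Cu0h and at 253, 491 and 678 CPM in Cu24h. After challenge without the interval they were at 371, 651 and 679 CPM at 1 h, at 408, 565 and 630 CPM at 4 h and at 445, 578 and 676 CPM at 24 h. The 9 groups overlapped throughout. After challenge at 24 h they were at 382, 572 and 665 CPM, at 552, 572 and 628 CPM and at 451, 563 and 716 CPM at 1, 4 and 24 h. Group means ran from 470 ± 144 CPM (SD, n = 6) in Cu24h to 607 ± 116 CPM in Cu0h-1h, a ratio of 1.29. The lowest fish of all was Cu24h replicate 1, 1 of the 8 fish with few transcripts detected.

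ENSIPUT00000021021 was the second steadiest, at a mean of 1170 CPM and a ratio of SD to mean of 0.18. Its group means ran from 948 ± 126 CPM in Cu24h to 1350 ± 328 CPM in Cu0h-1h (SD, n = 6), and its fish from 786 CPM (Cu24h replicate 1) to 1950 CPM (Cu0h-1h replicate 1). The next highest group was Cu24h-1h, at 1330 ± 188 CPM, so its groups sampled 1 h after challenge were its highest, by less than their own spread. ENSIPUT00000028029 had a mean of 244 CPM and a ratio of 0.2, with group means from 198 ± 31.3 CPM in the controls to 283 ± 29.6 CPM in Cu24h-24h. In these 2 groups its fish did not overlap, at 163 to 244 CPM against 247 to 332 CPM.

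ENSIPUT00000011012 (mean 299 CPM, ratio of SD to mean 0.219) went the other way, from 348 ± 22.7 CPM in the controls down to 213 ± 52.7 CPM in Cu24h-4h. Its control fish, at 325 to 391 CPM, were all above its Cu24h-4h fish, at 145 to 296 CPM. ENSIPUT00000010958 (mean 933 CPM, ratio 0.23) ran from 792 ± 136 CPM in Cu0h-1h to 1090 ± 309 CPM in Cu24h. ENSIPUT00000038981 (mean 139 CPM, ratio 0.235) ran from 108 ± 14.2 CPM in the controls to 163 ± 22.9 CPM in Cu24h-24h. The 6 steadiest transcripts thus had no common direction.

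**Figure D2:**
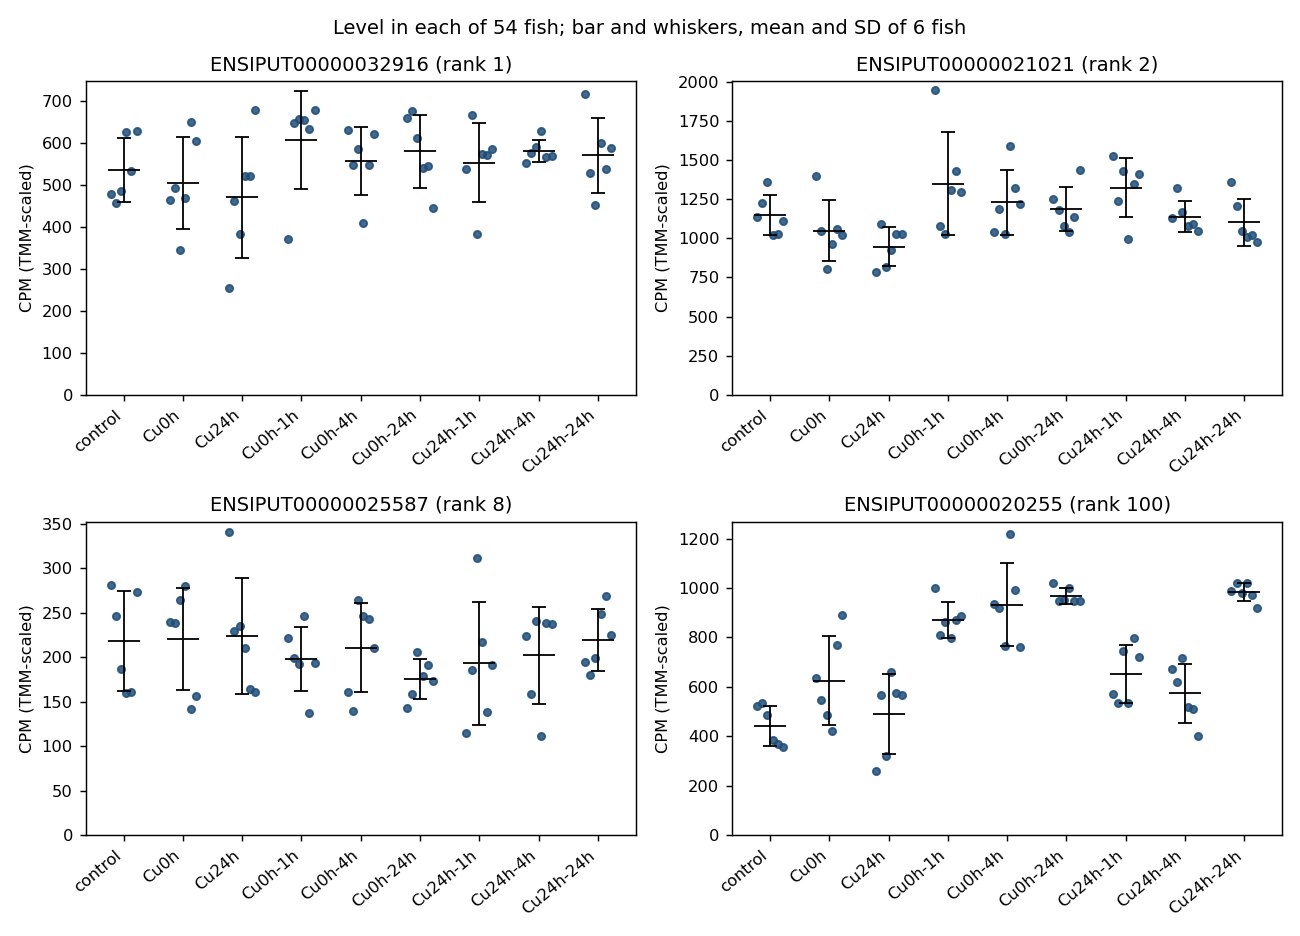
Level in each of the 54 fish (points, CPM scaled by TMM) by group for the 2 steadiest transcripts, the transcript with the smallest ratio of group means (ENSIPUT00000025587) and the last on the list (ENSIPUT00000020255); bars and whiskers are mean and SD of 6 fish. The groups overlap for the first 3, and for ENSIPUT00000020255 all fish of Cu24h-24h (921 to 1020 CPM) lie above all controls (357 to 535 CPM).

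The smallest ratio of group means, 1.28, belonged to ENSIPUT00000025587, eighth in steadiness. Its group means ran from 175 ± 22.3 CPM in Cu0h-24h to 224 ± 65.3 CPM in Cu24h (SD, n = 6), and single fish from 112 to 341 CPM. Only 9.33% of its variance lay between groups, so its spread was almost wholly between fish of the same group. ENSIPUT00000007855, 99th on the list, was alike in this, with 8.57% of its variance between groups and group means of 64.9 ± 14.8 to 87.3 ± 30.3 CPM. Its single fish ran from 13.6 to 141 CPM.

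The largest ratio, 2.22, belonged to ENSIPUT00000020255, the last on the list (ratio of SD to mean 0.317), and 77.3% of its variance lay between groups. Its control fish had 357, 437 and 535 CPM (lowest, median and highest), its Cu0h fish 422, 592 and 892 CPM and its Cu24h fish 260, 567 and 659 CPM. After challenge without the interval, all 18 fish were above all controls, with means of 871 ± 71.6, 933 ± 170 and 968 ± 31.8 CPM at 1, 4 and 24 h. After challenge at 24 h the means were 651 ± 117, 574 ± 117 and 984 ± 37.4 CPM at 1, 4 and 24 h. A transcript can thus be among the 100 with the lowest ratio of SD to mean and still separate some groups. Levels of ENSIPUT00000020255 were close together in Cu0h-24h and Cu24h-24h but wide apart in Cu0h and Cu24h.

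The second largest ratio, 2.14, belonged to ENSIPUT00000005006. Its Cu0h-1h fish had 240 to 299 CPM (263 ± 19.6, SD, n = 6) and its Cu24h-4h fish 105 to 152 CPM (123 ± 17), with no overlap, and the controls lay near the lower end at 148 ± 36.9 CPM. The most abundant transcript of the list, ENSIPUT00000032649, had a mean of 1470 CPM and group means of 1130 ± 618 CPM in Cu0h to 1880 ± 327 CPM in Cu24h-24h. In Cu0h replicate 4 it was at 83.3 CPM (31 counts), while the other Cu0h fish had 953 to 1770 CPM. The least abundant, ENSIPUT00000002932, had a mean of 51.4 CPM and ran from 8.15 CPM (Cu0h replicate 2) to 88.2 CPM (Cu24h-1h replicate 6). ENSIPUT00000000139, chosen after its values were seen, had the widest gap of all: 5.01 CPM, or 2 counts, in Cu24h replicate 1, against 78.2 to 141 CPM in the other Cu24h fish.

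The limit of 100 cut through a continuous range. The last 3 inside were ENSIPUT00000006970 (ratio of SD to mean 0.316), ENSIPUT00000007855 (0.317) and ENSIPUT00000020255 (0.317). The first 3 outside were ENSIPUT00000025854 (0.317), ENSIPUT00000034051 (0.318) and ENSIPUT00000033371 (0.318). The ratios of their group means, 1.68, 1.97 and 1.71, lay within the range of the list.

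No group held the highest or the lowest mean of most steady transcripts. The controls were highest for 17 and lowest for 17, Cu0h-1h for 13 and 16, Cu24h-24h for 13 and 10, Cu24h-4h for 11 and 14, and Cu24h-1h for 5 and 7. The median of a group mean over the control mean was 0.97 in Cu24h-1h to 1.09 in Cu0h-1h. A group mean was taken as near the control mean where the lower was at least 0.8 times the higher. Near the controls were 64 of the 100 in Cu0h, 70 in Cu24h and 64 in Cu24h-1h, but 37 in Cu0h-1h, 48 in Cu0h-4h, 37 in Cu0h-24h, 53 in Cu24h-4h and 40 in Cu24h-24h. The shares of the other eligible transcripts, in the same order, were 40.8%, 42.5%, 36%, 14.3%, 16.7%, 16.4%, 33.3% and 16.4%. The counts of the uninfected copper groups rested on the fish with few transcripts detected. Without the 8 fish, 44 of the 100 were near the controls in the 2 remaining Cu0h fish (16.4% of the others), 40 in the 4 remaining Cu24h fish (14.5%), 43 in Cu0h-4h (17%) and 35 in Cu0h-24h (14.2%).

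The spread within a group depended on the group. The median ratio of SD to mean of the steady transcripts was 0.182 in the controls, 0.16 in Cu24h-24h and 0.197 to 0.236 in the other challenged groups. It was 0.317 in Cu0h and 0.344 in Cu24h. The other eligible transcripts followed the same order at the ends, with 0.264 in Cu24h-24h, 0.265 in the controls, 0.492 in Cu0h and 0.567 in Cu24h. The 2 uninfected copper groups were thus the most variable for both. They hold 6 of the 8 fish with few transcripts detected. The scaling was then recomputed with all 8 left out. In the 4 remaining Cu24h fish the median was 0.124 for the steady transcripts and 0.243 for the others. No such value was recorded for the 2 remaining Cu0h fish.

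The mean absolute log2 distance of a fish from the transcripts' means was 0.22 to 0.45 in the 46 other fish and 0.39 to 0.86 in these 8. Cu24h replicate 1 was the farthest at 0.86. It was the lowest of all fish for 26 of the steady transcripts and the highest for 11. Cu0h replicates 1 to 4 were at 0.44 to 0.56, and replicates 5 and 6 of the same group at 0.28 and 0.29. Of the 200 lowest and highest values of the list, 63 belonged to the 6 fish of Cu24h and 31 to those of Cu0h. Cu0h-4h replicate 4 and Cu0h-24h replicate 6 were mainly high, holding the highest value of 10 and 7 transcripts.

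**Figure D3:**
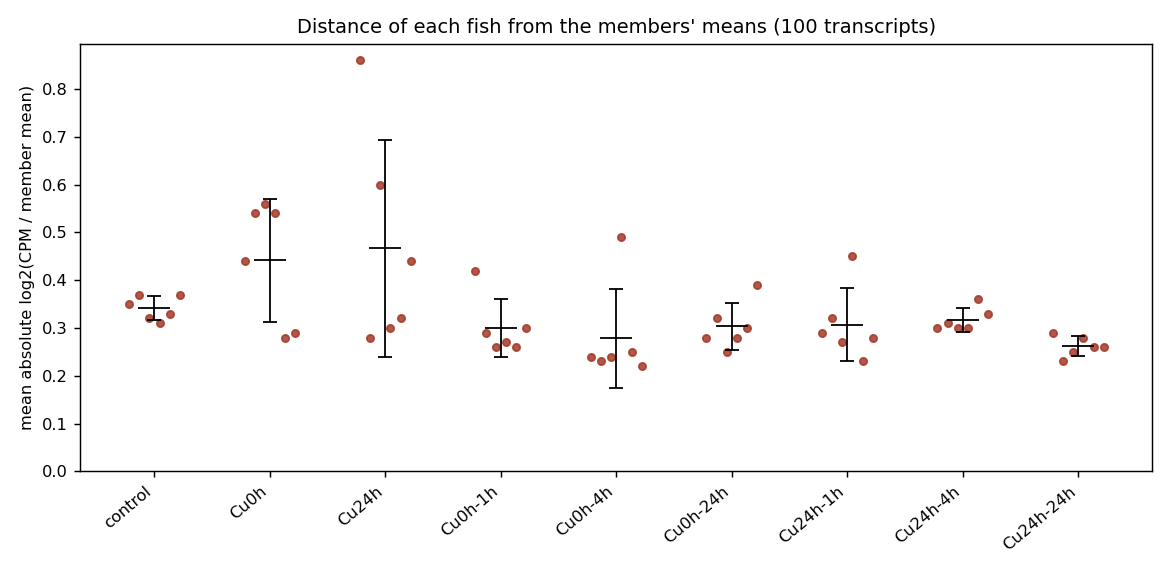
Mean absolute log2 distance of each fish from the means of the 100 steady transcripts, by group (points, 54 fish; bars and whiskers, mean and SD of 6 fish). Cu24h replicate 1 is the farthest at 0.86, and the Cu0h fish split into 4 at 0.44 to 0.56 and 2 at 0.28 and 0.29.

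Without the 8 fish the list changed. The same rule applied to the other 46 fish kept 54 of the 100 transcripts. The 100 themselves had a ratio of SD to mean of 0.136 to 0.321 over the 46 fish (median 0.25, against 0.45 for the others), and their median ratio of highest to lowest group mean was 1.71. The share of variance between groups rose from a median of 31.5% to 44.5%. These 46 fish were among those used in the choice, so the lower median is also a description. The exact list thus rested on the 8 fish as well as on the groups.

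Summed over the 100 transcripts, the level was close in all groups. The sums were 26400 ± 1010 CPM (SD, n = 6) in the controls, 25300 ± 2300 CPM in Cu0h and 26300 ± 2970 CPM in Cu24h. After challenge without the interval they were 27700 ± 1300, 28500 ± 2370 and 27600 ± 1990 CPM at 1, 4 and 24 h, and after challenge at 24 h 25700 ± 1560, 25600 ± 1330 and 27400 ± 678 CPM. Over the 54 fish the sum had a ratio of SD to mean of 0.0755, and over the 46 fish one of 0.0518. The average of the 6 steadiest, each relative to its own mean, had one of 0.0951, with single fish at 0.691 to 1.22 and group means of 0.949 in Cu24h to 1.07 in Cu24h-1h.

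The evenness of these 100 belonged to the scaled values, in which they were chosen. As a share of all counts in the library, with no scaling factor, the same 100 transcripts took 1.89 to 2.17% in the controls, 2.73 to 3.41% in Cu0h-1h, 2.65 to 3.32% in Cu0h-24h and 2.82 to 3.2% in Cu24h-24h, with no overlap between the controls and these 3 groups. The Cu24h-1h fish, at 2.09 to 2.65%, overlapped the controls. The Cu0h fish split, with replicates 1 to 4 at 1.59 to 1.99% and replicates 5 and 6 at 3.16%. The 100 most abundant transcripts of the controls took 39.5 to 43.4% of all counts in the controls, 26 to 31.9% in Cu0h-1h and 27.6 to 32.4% in Cu24h-24h. They were picked for their level in the controls, and shares of 1 total trade off, so this opposite direction is partly fixed in advance. In Cu0h replicates 1 to 4 they took 41.5 to 43.5%, and in Cu24h replicates 1 and 3 they took 48.1% and 44.9%. The TMM factor was 0.758 to 0.854 in the controls and 0.941 to 1.29 in Cu0h-1h, and moved with both shares. The same rule applied without a scaling factor kept 22 of the 100, and with the size factors of DESeq2 it kept 80. The transcripts it chose without a factor had ratios of SD to mean of at most 0.254, against 0.317 for the list. The list was chosen for low spread after TMM, so its wider spread without TMM is partly fixed in advance. The part of TMM in the evenness therefore cannot be read from these values. Without a factor 50 of the 100 had their lowest group mean in the controls, against 17 with TMM and 31 with DESeq2 size factors, and their median ratio of SD to mean was 0.352.

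**Figure D4:**
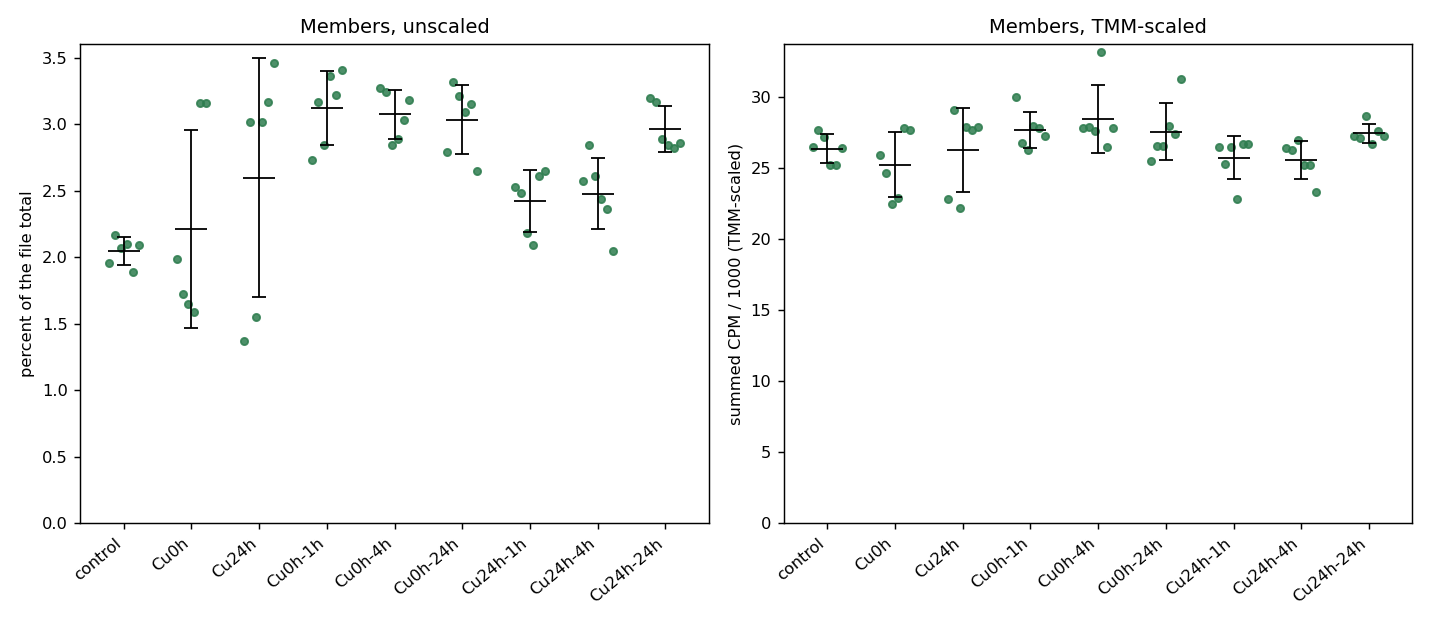
Left, percent of all counts in a library that fell on the 100 steady transcripts, with no scaling factor; right, their summed level as CPM / 1000, scaled by TMM. Points are fish (n = 6 per group) and bars and whiskers are mean and SD; the unscaled shares are 1.89 to 2.17% in the controls and 2.73 to 3.41% in Cu0h-1h, while the scaled sums differ little.

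Ratios of 2 transcripts within a fish need no scaling factor. Over all 4950 pairs of the list, the SD of the log2 ratio over the 54 fish had a median of 0.606. The transcripts with the lowest mean SD of their log2 ratio to the other 99 were ENSIPUT00000021021 (0.483), ENSIPUT00000032916 (0.494), ENSIPUT00000028029 (0.509) and ENSIPUT00000003868 (0.533), which include the 3 with the lowest ratio of SD to mean. The highest was that of ENSIPUT00000000139 (0.789). The other 99 were themselves chosen for low spread after TMM, so this order is partly fixed in advance. Of the 6 steadiest, the rule kept 6 with DESeq2 size factors and 2 with no scaling factor. ENSIPUT00000000029 and ENSIPUT00000000011, chosen after their values were seen, kept a ratio of 0.611 to 1.21 in single fish (median 0.886, SD 0.216 on the log2 scale), although the level of each was highest in Cu0h-4h replicate 4 and lowest in control replicate 5.

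A pair of the list was not independent. ENSIPUT00000001717 and ENSIPUT00000001732 had equal counts in all 54 libraries, so the 100 transcripts held 99 distinct profiles. Among 17919 transcripts with a total count of at least 100, 139 shared their counts with another in this way, in 68 sets. How the counting program divided reads between similar transcripts could not be checked, and values per transcript depend on it.

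Pairs of steady transcripts moved together or in opposite directions less often than pairs of other eligible transcripts. The rule picked low spread in these same fish, so weak correlation is partly built in and the values are a description. By the Poisson estimate, counting error took a median of 12.1% of the variance, against 4.26% in the other eligible transcripts. Spearman's rho over the 54 fish, which share their libraries and scaling factors, had a median of 0.0228 over the 4950 pairs. It was above 0.5 for 3.9% of pairs and below -0.5 for 2.14%, against 14.2% and 9.84% of pairs of other eligible transcripts. With the number of transcripts detected at equal depth, 15 of the 100 had a rho above 0.5 and 16 one below -0.5 (range -0.82 to 0.66), against 11.5% and 36.8% of the others. Over the 46 fish without the 8, the median rho of pairs was 0.00358, and 8 and 11 of the 100 had a rho with the number detected above 0.5 and below -0.5, against 7.3% and 30.6% of the others. Levels of some steady transcripts therefore moved with the number detected, in both directions, so a median rho near 0 does not mean that nothing was shared.

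In 8 comparisons, Cu0h was set against the controls, Cu24h against Cu0h, and each challenged group against the uninfected copper group of the same interval. All 100 transcripts were tested in each. A differentially expressed transcript (DEG) had a false discovery rate (FDR) below 0.05 by edgeR's quasi-likelihood test with Benjamini-Hochberg adjustment over all transcripts tested, and a log2 fold change above 1 in size. The rule used these fish, so the counts describe the list. No steady transcript was a DEG in any of the 8 comparisons. The background over all transcripts tested was 3.14% for Cu0h against control, 0.201% for Cu24h against Cu0h, 6.75%, 0.464% and 11.6% for Cu0h-1h, Cu0h-4h and Cu0h-24h against Cu0h, and 0.643%, 2.68% and 19.8% for Cu24h-1h, Cu24h-4h and Cu24h-24h against Cu24h. DESeq2's Wald test gave 1 in Cu24h-4h against Cu24h and 0 in the other 7, and its share over all transcripts was not recorded. At an unadjusted p below 0.05 in edgeR there were 11 of the 100 for Cu0h against control, 1 for Cu24h against Cu0h, 18, 5 and 17 against Cu0h, and 4, 10 and 11 against Cu24h, in the same order of times. The shares of all transcripts tested were, in the same order, 18.9%, 9.64%, 28.9%, 22.6%, 30.9%, 11.9%, 17% and 34.2%.

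At an FDR below 0.05 alone, with no limit on fold change, there was 1 steady transcript in Cu0h-1h against Cu0h (background 7.03%), 1 in Cu0h-24h against Cu0h (12.1%) and 2 in Cu24h-24h against Cu24h (20.2%). The background was 3.25%, 0.464%, 0.201%, 0.643% and 2.68% in the 5 comparisons with none. ENSIPUT00000006097 was downregulated in Cu0h-1h, with 503 to 595 CPM against 625 to 1320 CPM in Cu0h, and its log2 fold change was -0.9 (SE 0.26). ENSIPUT00000026103 was upregulated in Cu0h-24h, with 703 to 1190 CPM against 331 to 628 CPM in Cu0h (log2 fold change 0.96, SE 0.27), and ENSIPUT00000020255 in Cu24h-24h (0.95, SE 0.3). In each of these 3 the 2 groups did not overlap. The other transcript of Cu24h-24h had 128 to 187 CPM against 40.1 to 105 CPM in Cu24h, also with no overlap (log2 fold change 0.87, SE 0.29). A single fit of all 54 libraries, which shares 1 estimate of the spread, moved these counts. It gave 12 in Cu0h-1h (background 13.7%), 17 in Cu0h-24h (16.5%), 7 in Cu24h-4h (6.14%) and 13 in Cu24h-24h (23.6%). It also gave 2 in Cu0h-4h (7.32%), 1 in Cu0h against control (3.15%), 1 in Cu24h against Cu0h (3.66%) and 0 in Cu24h-1h (2.36%). Of the 100 transcripts, 1, 0, 6, 3, 6, 1, 3 and 8 had no overlap between the fish of the 2 groups, in the order in which the comparisons were given above, against a background of 3.33%, 0.775%, 4.09%, 3.07%, 5.85%, 1.16%, 2.62% and 11.1%.

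A missing call did not show that a level was unchanged. The median absolute log2 fold change of the list was 0.21 to 0.33 in the 8 comparisons, against 0.37 to 0.63 over all transcripts tested, and single transcripts ran from -1 to 0.96. The median SE of a log2 fold change was 0.28 to 0.39. The 95% interval of the fold change lay wholly between -1 and 1 on the log2 scale for 42 of the 100 transcripts in Cu24h against Cu0h. In Cu0h-4h against Cu0h this held for 74, and the other comparisons lay between these. The shares of all transcripts tested were 5.87% and 10.5% in these 2, and at most 23.3% (Cu0h against control). For the remaining transcripts of the list the interval reached a change by a factor of 2 or more.

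These counts changed when the 8 fish with few transcripts detected were left out. Without them, 26 of the 100 were below an FDR of 0.05 in Cu24h-24h against Cu24h (background 29.6%), 17 in Cu24h-4h against Cu24h (16.5%), 16 in Cu24h-1h against Cu24h (15.7%) and 17 in Cu0h against control (24.4%), each with 4 Cu24h or 2 Cu0h fish. Against the 2 remaining Cu0h fish, Cu0h-1h, Cu0h-4h, Cu0h-24h and Cu24h gave 0, 0, 1 and 0 (1.08%, 2.54%, 5.29% and 0.621%). As DEGs there were 3 in Cu24h-4h against Cu24h (13.3%), 2 in Cu24h-1h against Cu24h (12.5%), 1 in Cu0h against control (20.4%), 1 in Cu0h-24h against Cu0h (4.91%) and 0 in Cu24h-24h against Cu24h (23.8%) and in Cu0h-1h, Cu0h-4h and Cu24h against Cu0h (1.07%, 2.45% and 0.621%).

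Over all 9 groups together, 36 of the 100 steady transcripts had an FDR below 0.05 for any difference between groups (edgeR, 54 fish), beside a background of 49.2% of 12680 transcripts tested and 79.1% of the other eligible transcripts. Without the 8 fish there were 62, beside 47.8% of 17224 transcripts tested. The share of the other eligible transcripts was not recorded there, so the 62 cannot be set against it. This test spanned all groups and set no limit on fold change, so its count cannot be set against the DEGs of single comparisons. Their background over all fish was also lower, at 0.201 to 19.8%.

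Whether steadiness carried over to fish that had no part in the choice was read by leaving out 1 group at a time. The rule was applied to the 48 fish of the other 8 groups, and the level of the 100 chosen was then read in the left-out fish. Each choice shared 68 (Cu0h left out) to 94 (Cu24h-4h left out) of its 100 with the list, and 54 transcripts were in all 9 choices. The mean in the left-out group was near the mean of the other 8 group means, by the same limit of 0.8, in 606 of 900 readings. A transcript chosen more than once counts each time, so the readings are not independent. By group, this held for 85 in Cu0h-4h, 81 in Cu24h-1h, 75 in Cu0h-24h, 75 in Cu24h-4h, 70 in Cu24h-24h, 64 in Cu0h-1h, 62 in Cu24h, 48 in Cu0h and 46 in the controls. In the other eligible transcripts the shares were, in the same order, 40.9%, 54.1%, 33.2%, 54.9%, 37.8%, 30.9%, 39.4%, 38.3% and 24.7%.

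**Figure D5:**
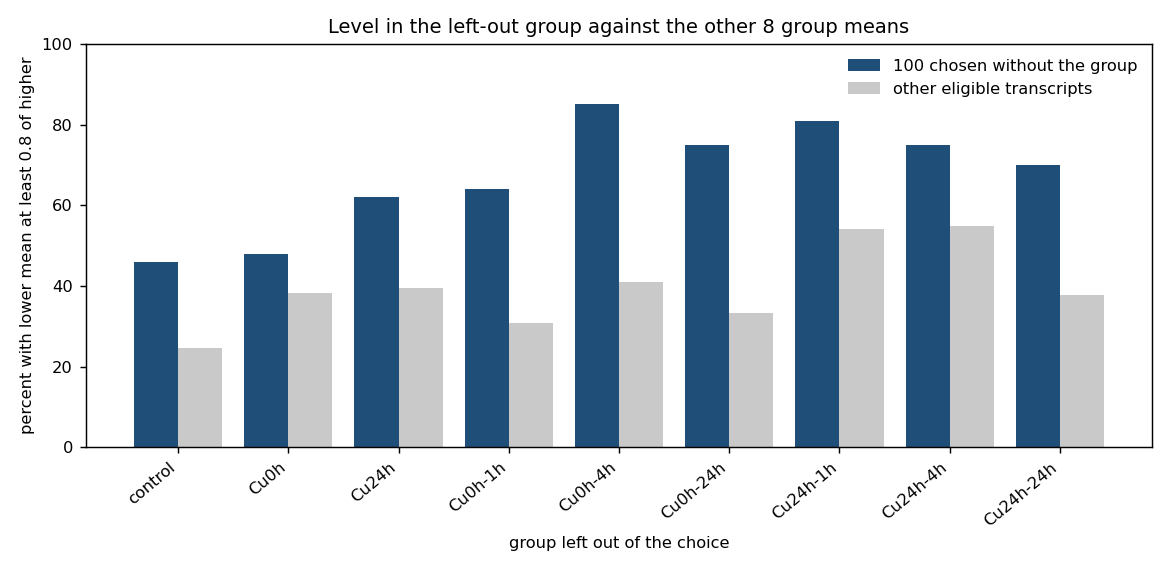
Percent of transcripts whose mean in a left-out group was near the mean of the other 8 group means (the lower at least 0.8 times the higher), for the 100 chosen without that group (dark bars) and for the other eligible transcripts (grey bars). The dark bars run from 46% for the controls to 85% for Cu0h-4h.

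The left-out group was also tested against the mean of the other 8 groups with edgeR, adjusted over all 12680 transcripts. The spread in this test came from all 54 fish, including the 48 used in the choice. The chosen transcripts had low spread there, which can raise their FDR counts, so these counts are partly fixed in advance. At an FDR below 0.05 there were 28 of 100 for the controls (background 22.3% of all transcripts tested and 48% of the other eligible ones), 20 for Cu0h-1h (16.2% and 28.4%), 19 for Cu24h (16.9% and 28%), 13 for Cu0h-24h (20.7% and 33.5%) and 11 for Cu24h-24h (14.2% and 24.2%). For Cu0h-4h, Cu24h-1h and Cu24h-4h there were 3 (8.12% and 12.7%), 2 (1.98% and 4.38%) and 2 (2.78% and 5.05%). Cu0h had 14 of 100 (4.12% and 12.2%). With the choice made on DESeq2 size factors there were 19 in Cu0h (12% of the other eligible transcripts) and 30 in Cu0h-1h (27.9%). With TMM the 20 in Cu0h-1h lay below the others (28.4%), so the direction there depended on the scaling. No separate share over all transcripts was recorded for this second choice. With the limit on fold change added, 2 were called in Cu0h (background 1.99%), 1 each in the controls (15.4%), Cu24h (11%), Cu0h-1h (8.95%) and Cu24h-1h (1.61%), and 0 in Cu0h-4h (4.57%), Cu0h-24h (12%), Cu24h-4h (2.1%) and Cu24h-24h (9%). The share of chosen transcripts near their level elsewhere was highest in Cu0h-4h (85) and Cu24h-1h (81), and lowest in the controls (46) and in Cu0h (48). The other eligible transcripts also differed by group, at 40.9%, 54.1%, 24.7% and 38.3% in the same order. The gap to them was wider in Cu0h-24h (75 against 33.2%) than in Cu24h-1h, so this order is not one of the chosen transcripts alone.

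The same choice without the 8 fish gave 596 of 900 such readings near the level elsewhere, but divided otherwise between groups. In the controls 22 of the 100 chosen elsewhere were near (20.2% of the other eligible transcripts) and in Cu24h 31 (35.3%), against 58 in the 2 Cu0h fish (42.9%), 77 in Cu0h-1h (44.8%) and 80 to 85 in the other groups (33.1 to 50.9%). At an FDR below 0.05 there were 76 of 100 in the controls (background 22.9% of 17224 transcripts tested and 61.1% of the other eligible ones) and 58 in Cu24h (17.3% and 33%), and 4 in Cu0h (2.69% and 5.15%). This fit again included the fish used in the choice, so these counts are also partly fixed in advance.

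Within the left-out group, the transcripts chosen elsewhere had a median ratio of SD to mean of 0.163 in Cu24h-24h to 0.402 in Cu0h. The other eligible transcripts had 0.265 and 0.49 in these groups. In the left-out controls the medians were 0.205 and 0.268, and in Cu24h 0.381 and 0.565. In all 9 groups the chosen transcripts had the lower median.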

How the data were processed

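Gill mRNA libraries of 54 fish were analysed, 1 file per fish and 6 fish per group by the labels. The authors deposited estimated counts per Ensembl transcript, labelled effective counts, which were rounded to whole numbers and not normalized between libraries. Any adjustment made to these estimated counts within a library before rounding could not be checked, so they need not equal numbers of reads. Processing notes in the labels name Trim Galore 0.5.0, Bowtie2 2.3.4.3, eXpress 1.5.1 and DESeq2 1.24.0, whereas the methods of the paper describe alignment with STAR and counting with HTSeq; the build and annotation behind the deposited values are not given in the sources used here. Dividing reads between similar transcripts can alter single values.

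All steps used R 4.3.3. CPM were scaled by TMM in edgeR 4.0.16 after the filter of a count of 10 in 6 fish. Each comparison was fitted on its 12 libraries with filterByExpr, TMM and the quasi-likelihood test, which was tested on simulated data. SEs were approximated from fold change and F statistic. Any difference between groups and the left-out groups were tested on all 54 libraries. In the choices with a group left out, the 100 highest were ranked in the controls, or over the remaining fish where the controls were left out.

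Named transcripts were the 6 steadiest, the 3 on either side of the limit, and the highest and lowest in mean. The 2 largest and 2 smallest ratios of group means and any DEG (at most 2 that rose and 2 that fell) were to be named too. No steady transcript was a DEG in the main fits. All other transcripts were chosen after their values were seen, whether or not marked so. Some of these had an FDR below 0.05 alone, equal counts, or a low spread of their ratios to other transcripts. The steady transcripts and all lists were chosen with earlier results of these data known. Alternatives were DESeq2 1.42.0, other scalings, filters and measures of spread, a replicate block, and leaving out fish. Among 135 within-group pairs of libraries the smallest chi-square per transcript was 5.29, above sampling noise, so each fish counted as 1 sample. Gene lists and cell markers could not be used without gene names.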

Additional observations from a re-analysis of the deposited data

Results flagged for a closer look

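In each group of 6 fish, the named transcripts, the summed level of the 100 steady transcripts and the distance of each fish from their means were searched for 1 fish far from the other 5 (a gap over Dixon's 95% critical value as a share of the group's range). Of 162 groups tested 10 had such a fish, and chance gives about 1 in 20.

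Cu0h-1h replicate 1 was low for ENSIPUT00000032916, at 371 CPM (next fish 633 CPM), and for ENSIPUT00000032649, at 1260 CPM (next 1630 CPM), and its mean absolute log2 distance from the transcripts' means was 0.42 (next 0.3). In the same group replicate 5 was high for ENSIPUT00000005006, at 299 CPM (next 261 CPM). Cu0h-24h replicate 6 was high for ENSIPUT00000011012, at 419 CPM (next 291 CPM), and for ENSIPUT00000010958, at 1110 CPM (next 872 CPM). Cu0h-4h replicate 4 was high for ENSIPUT00000025854, just outside the list, at 652 CPM (next 357 CPM). The same fish had a summed level of 33200 CPM (next 27900 CPM) and a mean absolute log2 distance of 0.49 (next 0.25). Cu24h-1h replicate 4, with the lowest total count of all fish (352013), had a summed level of 22800 CPM (next 25300 CPM).

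The same search over all 100 transcripts in the 9 groups found 68 of 900 (7.56%). Cu0h-4h replicate 4 accounted for 13, Cu0h-24h replicate 6 for 10, Cu0h-1h replicate 1 for 7, Cu24h replicate 1 for 6 and Cu24h-1h replicate 4 for 5. The first 2 and Cu24h replicate 1 are among the 8 fish with few transcripts detected; the part of that difference in these values was not tested.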

How the results depend on the processing

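The list depended on how steadiness was measured. The rule kept 22 of the 100 with no scaling factor, 39 with MAD over median, 46 with SD over mean of the 9 group means and 54 without the 8 fish with fewest transcripts detected (added after seeing the data). It kept 67 to 93 under the other settings, 68 to 94 with 1 group left out and 88 (without Cu24h replicate 1) to 99 with 1 fish left out. The summed level had a ratio of SD to mean of 0.212 with no scaling factor. Of the DEG counts, all 0, DESeq2's Wald test gave 1 in Cu24h-4h, fitting with no filter on low counts gave 1 in Cu24h-24h, and leaving out the 8 fish gave 1 in Cu0h against control, 1 in Cu0h-24h, 2 in Cu24h-1h and 3 in Cu24h-4h. With 1 fish left out the counts were 0 to 2 in Cu0h-1h (2 without Cu0h replicate 5 or 6, 1 without Cu0h-1h replicate 1), 0 to 1 in Cu0h-24h (Cu0h replicate 5 or 6, or Cu0h-24h replicate 1), 0 to 1 in Cu24h-4h (Cu24h replicate 1 or 3), 0 to 1 in Cu24h-24h (Cu24h replicate 4) and 0 in the other 4. Shares over all transcripts were not recorded for the Wald test, the fits with no filter and those with 1 fish left out. Any difference among groups was found for 62 without the 8 fish (47.8% of all transcripts in that fit). With no filter on low counts it was found for 11. The share over all transcripts in that fit was not recorded, so the fall cannot be read as a result about the list. At an FDR below 0.05 alone, 1 fit of all 54 libraries gave 12, 17, 7 and 13 in Cu0h-1h, Cu0h-24h, Cu24h-4h and Cu24h-24h (13.7%, 16.5%, 6.14% and 23.6% of all transcripts in that fit). In Cu0h-4h, Cu0h against control, Cu24h against Cu0h and Cu24h-1h it gave 2, 1, 1 and 0 (7.32%, 3.15%, 3.66% and 2.36%). The causes were not tested. DESeq2 size factors shifted the median log2 fold change by at most 0.06 in size.

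On average, fish with the same replicate number were hardly more alike than others. Deviations of 216 same-numbered pairs had a mean correlation of 0.00387 (-0.205 to 0.341), against -0.000389 for different numbers. Whether some of the fish were paired, as by tank, was not tested. With the replicate block the DEG counts stayed at 0 in all 8 comparisons, and the counts at an FDR below 0.05 alone were 0. The share over all transcripts with the block was not recorded, so these counts cannot be read as a result about the list.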
